A study of Mus musculus with 24 samples.

Results

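In mouse expanded potential stem cells (EPSCs), 100 genes of the 25476 listed were much lower after Oct4 was switched off and after Sox2 was switched off. After Nanog was reduced they stayed within 0.6 of their former level on the log2 scale. They included the adhesion receptor gene Pecam1, the Notch ligand gene Dll1, the angiopoietin receptor gene Tek, the transcription regulator genes Prdm14, Foxh1 and Etv5, the osteopontin gene Spp1 and the transsulfuration enzyme genes Cth and Cbs. The set was selected on these same data. For each line the measure d was the mean log2(normalized count + 1) of the 2 doxycycline-treated (Dox) libraries minus that of the 2 untreated libraries, where a normalized count is the number of reads on a gene divided by the size factor of its library. Genes had to reach a mean of 100 in untreated cells of the Oct4 and Sox2 lines and to have a d between −0.6 and 0.6 in the Nanog line, which 8327 genes did. These were ordered by the weaker of their differences in the Oct4 and Sox2 lines, and the 100 with the lowest value were taken after 13 well-known regulators had been set aside by name. A gene therefore had to be lower in both of these lines, so that every d given here is a description of how the genes were chosen and carries no test.

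The lines were tet-off ESCs in which the only expressed copy of a regulator is a transgene that Dox silences. ZHBTc4 (Oct4 Tet-off knockin, here Oct4-cKO), 2TS22C (Sox2 Tet-off knockin, Sox2-cKO) and NgcKO (Nanog Tet-off knockin, Nanog-cKO) were each studied as ESCs, as EPSCs in the medium of the Liu protocol (L-EPSCs) without Dox, and as L-EPSCs with Dox. Wild-type J1 cells were studied without Dox as ESCs in serum medium with LIF and the 2i inhibitors CHIR99021 and PD0325901, as L-EPSCs and as D-EPSCs, which grow in the medium of the Deng protocol. The study's methods do not state the medium of the tet-off ESCs, which may differ from that of J1 ESCs. L-EPSC medium holds LIF, CHIR99021, PD0325901, A-419259, XAV939, JNK inhibitor VIII and SB203580, and D-EPSC medium holds LIF, CHIR99021, dimethindene maleate and minocycline hydrochloride. J1 ESCs and L-EPSCs grew on mouse embryonic fibroblast feeders or on gelatin, and per the study's methods both kinds of EPSC were kept without feeders for several passages before RNA was taken. Every group had 2 libraries, and each tet-off genotype was 1 line, so that line and genotype cannot be told apart. The labels give neither the hours of Dox before RNA was taken nor whether the 2 libraries of a group came from separate cultures, so that p-values measure only the spread between these libraries, which may be technical.

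Oct4 (Pou5f1) and Sox2 are transcription factors that bind DNA side by side, Oct4 through an octamer and Sox2 through a short neighbouring element, at enhancers of genes that keep embryonic stem cells undifferentiated. Nanog occupies many of the same regions and stabilises that state, but stem cells can persist without it, whereas loss of Oct4 sends them towards trophoblast and loss of Sox2 has a similar outcome.

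Of the 100 genes, 65 were matched by gene identifier, or failing that by symbol, to a RefSeq table of mouse promoters (GRCm38.p6). The 250 bases before each gene start were searched on both strands for the octamer ATGCAAAT. It was found before 4 genes, Dll1, Pipox, Spp1 and Tspan13. These stretches are shown as examples, and the data did not single out the octamer. The octamer, or its complement ATTTGCAT, is in capitals, and each stretch is written 5′ to 3′ in the direction of its gene. It begins 219 bases before a start of Dll1 (chr17:15375974-15376073, minus strand), 195 before Pipox (chr11:77894014-77894113, minus strand), 210 before a start of Spp1 (chr5:104435942-104436041, plus strand) and 120 before Tspan13 (chr12:36042545-36042644, minus strand). Dll1 and Spp1 each have 2 promoter windows, so their distances are to the start of the window that held the octamer. That start need not be the first of the gene.
Dll1: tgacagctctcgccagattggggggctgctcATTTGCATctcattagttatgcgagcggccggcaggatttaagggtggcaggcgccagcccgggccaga
Pipox: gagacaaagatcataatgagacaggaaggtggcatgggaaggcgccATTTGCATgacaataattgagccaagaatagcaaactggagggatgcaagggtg
Spp1: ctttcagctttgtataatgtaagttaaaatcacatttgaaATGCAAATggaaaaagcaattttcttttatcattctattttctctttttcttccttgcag
Tspan13: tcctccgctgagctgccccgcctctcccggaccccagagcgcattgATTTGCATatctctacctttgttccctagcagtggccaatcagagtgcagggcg
The octamer occurs in 1.60% of all 32851 promoter windows of the same length. The Sox element CATTGT was found before 9 of the genes and occurs in 10.7% of all windows. Klf, Myc E-box, Ets and Esrrb elements were also searched and were found before 5, 5, 1 and 0 genes. They occur in 3.20%, 6.02%, 2.88% and 0.387% of all windows. Fewer than 80% of the genes could be matched, so a comparison of shares is void and none is made. A match describes letters in this window and is neither a binding site nor a cause.

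All 100 genes were listed in the J1 table too, and 99 were annotated as protein coding. Libraries held 11612919 to 15069899 reads on genes in the J1 table and 10807631 to 14798984 in the tet-off table. The targeted genes followed the labels: Pou5f1 was at 162 and 184 normalized counts with Dox against 6420 and 6316 without in the Oct4-cKO line, and Sox2 at 47.0 and 53.1 against 4966 and 4701 in the Sox2-cKO line. Nanog RNA was only partly reduced in the Nanog-cKO line, to 3166 and 3112 from 9119 and 8847. By western blot, the study reports loss of Nanog protein with Dox in this line. The regulators also moved together: Sox2 was at 260 and 230 with Dox in the Oct4-cKO line against 5483 and 5480 without, Pou5f1 at 3291 and 3073 against 8221 and 8490 in the Sox2-cKO line, and Nanog at 691 and 726 in the former and 654 and 733 in the latter. The genes chosen are thus low in cells that had lost much of several regulators, and which of these the genes followed was not tested. The 9 pluripotency markers were detected in every group. Their sum was 31970 to 32138 untreated and 5854 to 6134 with Dox in the Oct4-cKO line, 36378 to 36921 and 8822 to 9254 in the Sox2-cKO line, and 41669 to 42211 and 29242 to 30143 in the Nanog-cKO line. This sum includes the targeted genes Pou5f1, Sox2 and Nanog. Lin28a had a higher mean with Dox in the Oct4-cKO line (744 to 893) and the Nanog-cKO line (1433 to 2587). Sall4 did so in the Nanog-cKO line (3698 to 4557), and the other means were lower with Dox. Sums of 12 trophoblast markers, all 12 at a mean of 10 or more with Dox in the Oct4- and Sox2-cKO lines, were 6867 to 7131 untreated and 33841 to 34627 with Dox in the Oct4-cKO line, 4346 to 4441 and 16914 to 16984 in the Sox2-cKO line, and 3533 to 3618 and 3337 to 3358 in the Nanog-cKO line. Krt8 and Krt18 led the Dox sums, at means of 12180 and 11452 in the Oct4-cKO line and 5342 and 4420 in the Sox2-cKO line. With Dox, Hand1 and Tead4 were lower in the Oct4-cKO line (360 to 261 and 391 to 314). Hand1 and Eomes were lower in the Sox2-cKO line (108 to 62.8 and 83.3 to 48.0). The other markers of this list were higher with Dox in these lines. In bulk RNA, fewer cells of a type and less RNA per cell cannot be told apart, and the part of these shifts in the values below was not tested.

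With Dox, the median d of the 100 genes was −2.75 in the Oct4-cKO line (range −6.95 to −1.67) and −2.31 in the Sox2-cKO line (range −5.57 to −1.66). The typical gene kept 14.7% of its untreated level without Oct4 and 20.0% without Sox2, and the range was 0.781% to 31.3% and 1.77% to 31.5%. Over the 8327 eligible genes the median d was 0.02 and −0.02, so the 100 genes lay far from the general shift, as the rule requires. With limma on all genes (adjusted p below 0.05, log2 change past 1), 10.8% of the 24007 genes tested were lower in the Oct4-cKO line, 7.32% in the Sox2-cKO line and 2.59% in the Nanog-cKO line. Of the chosen genes 100, 100 and 0 were so, which the rule fixed and from which nothing is read. The last genes taken were Robo1 (−1.68), Aard (−1.67) and Socs2 (−1.66), and the next in order were Dnajb5 (−1.66), Hmga1 (−1.64) and Grin1 (−1.64), so that the boundary cuts a continuous series. Of the 13 genes left out by name, Sox2 and Zfp42 would have been taken, at ranks 3 and 59.

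**Figure D1:**
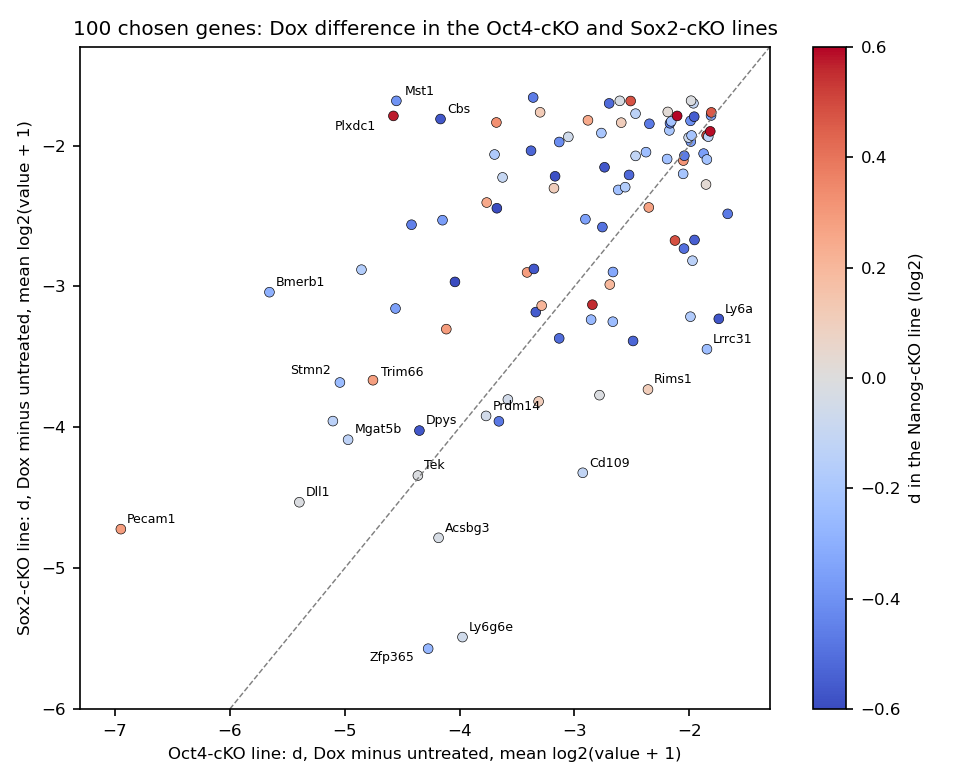
Each point is 1 of the 100 genes, with d (Dox minus untreated, mean log2 normalized count + 1) in the Oct4-cKO line on the x axis and in the Sox2-cKO line on the y axis, coloured by d in the Nanog-cKO line. Pecam1 stands at −6.95 and −4.72, and 65 genes had the lower d in the Oct4-cKO line.

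The first-ranked gene was Pecam1 (ENSMUSG00000020717, NCBIM37 chr11:106515531-106611942, minus strand), which encodes the adhesion receptor CD31 of endothelial and embryonic stem cells. In the Oct4-cKO line it was at 2069 and 2112 untreated and at 12.7 and 20.0 with Dox, or 0.781% of the untreated level. It was at 2165 and 2134 and at 83.3 and 77.7 in the Sox2-cKO line. The untreated and Dox libraries were far apart in both lines, whereas in the Nanog-cKO line Dox libraries were the higher ones, at 2103 and 2004 against 1650 and 1713. Dll1 (chr17:15504318-15513836, minus strand), a membrane-bound ligand of Notch receptors, ranked next. Its counts were 164 and 153 untreated and 3.45 and 2.22 with Dox in the Oct4-cKO line, 295 and 281 and then 11.5 and 11.4 in the Sox2-cKO line, and 271 and 238 and then 253 and 251 in the Nanog-cKO line. The Dox libraries of the Oct4-cKO line held only 3 and 2 reads on Dll1, so its d of −5.39 there depends on the 1 added to each count. Tek (chr4:94405980-94541667, plus strand), the receptor of angiopoietins, was at 173 and 166 untreated and at 3.45 and 14.4 with Dox in the Oct4-cKO line, and at 468 and 497 and then 28.9 and 18 in the Sox2-cKO line. Tek was low in the Nanog-cKO line whether Dox was given or not, at 33.0 and 11.2 and then 22 and 16.9, so its d of −0.01 there rests on few reads.

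Among the 12 transcription and chromatin genes the median d was −2.81 without Oct4, −2.26 without Sox2 and −0.13 in the Nanog-cKO line. Prdm14 (chr1:13103538-13117244), a PR-domain regulator that represses differentiation and DNA methylation genes in naive stem cells and germ cells, was at 485 and 586 and then 34.5 and 42.2 in the Oct4-cKO line. It was at 540 and 519 and then 33.0 and 35.2 in the Sox2-cKO line, and at 411 and 385 and then 365 and 402 in the Nanog-cKO line. Prdm14 was thus lower by a like amount in the first pair of lines (d −3.77 and −3.92), and its Dox and untreated libraries overlapped in the Nanog-cKO line. For Foxh1, the partner of SMAD proteins in Nodal signalling, the counts were 403 and 370 and then 11.5 and 13.3 in the Oct4-cKO line, against 441 and 428 and then 53.6 and 63.0 in the Sox2-cKO line. Foxh1 kept 3.21% without Oct4 and 13.4% without Sox2, a wider gap than for Prdm14. Trim66, a TRIM-family chromatin reader, kept 3.20% and 7.0%. Etv5 (chr16:22381382-22439792), an ETS factor that responds to FGF and ERK signalling, was at 2383 and 2424 and then 284 and 293 in the Oct4-cKO line and 2290 and 2379 and then 601 and 616 in the Sox2-cKO line. Zscan10, a zinc finger factor of stem cells, had the lower d without Sox2 (−2.82 against −1.97). The polycomb gene Phc1 had a d of 0.60 in the Nanog-cKO line, just within the limit of the rule.

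The 18 ligand, receptor and signalling genes had a median d of −2.68, −2.22 and −0.22 in the Oct4-, Sox2- and Nanog-cKO lines. Kit (chr5:75970941-76052747), the receptor of stem cell factor, was lowered evenly, from 2169 and 2149 to 521 and 568 in the Oct4-cKO line and from 3388 and 3446 to 858 and 883 in the Sox2-cKO line, leaving 25.2% and 25.5%. Eng, a co-receptor of TGF-beta family ligands, kept 15.6% and 10.3%, and Fgfr3, a receptor of fibroblast growth factors, 14.4% and 16%. The feedback inhibitors of ERK signalling Spred1 and Spry2 were more strongly lowered without Oct4, with d of −3.63 and −2.23 for Spred1 and −2.51 and −1.68 for Spry2. Spry2 was higher with Dox in the Nanog-cKO line, at 372 and 292 against 219 and 254, and its libraries did not overlap there. Mst1, which encodes macrophage-stimulating protein, showed the widest gap of the group: 115 and 143 and then 4.61 and 4.44 in the Oct4-cKO line, but 117 and 117 and then 33.8 and 37.6 in the Sox2-cKO line.

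Beside Pecam1, the 12 other surface protein genes included Ly6g6e, an LY6-family membrane protein gene, at 334 and 306 and then 16.1 and 23.3 in the Oct4-cKO line and at 581 and 562 and then 14 and 9.81 in the Sox2-cKO line. H2-M5, a nonclassical MHC class I gene, was at 116 and 155 and then 9.21 and 2.22, and at 131 and 134 and then 13.2 and 14.7. Cd109, which encodes a TGF-beta co-receptor, had the stronger difference without Sox2, with d of −4.32 against −2.93. The LY6-family gene Ly6a behaved likewise, at −3.23 against −1.74. Plxdc1, a plexin-domain receptor gene, had the reverse order, at 94.9 and 106 and then 4.61 and 2.22 in the Oct4-cKO line and 159 and 181 and then 52.8 and 44.2 in the Sox2-cKO line. Surface genes were thus found at both ends of the contrast between Oct4 and Sox2.

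Of the 6 extracellular matrix genes, Spp1 (chr5:104864137-104870069), which encodes the secreted phosphoprotein osteopontin, was at 4187 and 4273 and then 639 and 695 in the Oct4-cKO line. Its counts were 3812 and 3849 and then 519 and 508 in the Sox2-cKO line and 5988 and 5868 and then 4748 and 4697 in the Nanog-cKO line. Spp1 thus kept 15.8%, 13.4% and 79.7%, with all 3 pairs of groups apart. Mmp2, a gelatinase gene, kept 8.97% without Oct4 and 13.3% without Sox2, and the laminin gene Lama1 16.2% and 20.1%. Lama1 is also on the list of primitive endoderm markers, whose other members were not chosen by the rule.

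The 12 cytoskeleton and small GTPase genes had the lowest median d of any role without Oct4 (−3.26), with −2.42 without Sox2. Bmerb1, named for its Rab-binding bMERB domain, was at 114 and 98.8 and then at 1.15 and 1.11 in the Oct4-cKO line, that is at 1 read in each Dox library, so that its d of −5.65 depends on the added 1. In the Sox2-cKO line Bmerb1 was at 103 and 108 and then at 11.5 and 12.3. The actin nucleator gene Cobl was at 648 and 672 and then 93.3 and 44.4, against 1126 and 1177 and then 121 and 131, with nearly equal d (−3.34 and −3.18). Rtkn kept 11% and 9.25%. Arhgef40, a guanine nucleotide exchange factor gene, kept 3.97% without Oct4 and 16.5% without Sox2.

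Of the 17 metabolic enzyme and transporter genes, Cth (chr3:157557212-157588041) and Cbs (chr17:31749568-31774144) encode the pair of enzymes that turn homocysteine into cysteine. Cth was at 575 and 595 and then 33.4 and 68.8 in the Oct4-cKO line and at 536 and 503 and then 41.2 and 31.9 in the Sox2-cKO line. Cbs was at 428 and 419 and then 18.4 and 27.8 in the Oct4-cKO line but at 504 and 480 and then 125 and 156 in the Sox2-cKO line. The enzymes of this pathway were therefore alike without Oct4 (8.74% and 5.46% left) and unlike without Sox2 (7.04% and 28.5%). Other enzyme genes near the top of the order were the acyl-CoA synthetase gene Acsbg3 (5.60% and 3.44% left), the glycosyltransferase gene Mgat5b (2.78% and 5.39%), the dihydropyrimidinase gene Dpys (4.70% and 5.52%), the pipecolate oxidase gene Pipox (5.47% and 9.95%) and the uridine phosphorylase gene Upp1 (10.3% and 11.4%). Upp1 was at 3210 and 3280 and then 307 and 359 in the Oct4-cKO line. Ldhb, a subunit of lactate dehydrogenase, was at 6078 and 6353 and then 899 and 927 in the Oct4-cKO line, and in the Nanog-cKO line at 13367 and 13089 untreated and 11422 and 11578 with Dox.

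Stmn2, a microtubule regulator of neurons, led the 8 neuronal genes. It was at 782 and 770 and then 21.9 and 23.3 in the Oct4-cKO line, at 1010 and 1036 and then 88.3 and 70.3 in the Sox2-cKO line, and at 2806 and 2796 and then 2408 and 2304 in the Nanog-cKO line. Rims1, a scaffold of the presynaptic release site, had the lower d without Sox2 (−3.73 against −2.36). Among the 14 remaining genes, Zfp365 had the lowest d of all 100 genes in the Sox2-cKO line, with 259 and 298 and then 4.12 and 5.72, against 307 and 301 and then 11.5 and 18.9 in the Oct4-cKO line. Kbtbd11, a Kelch and BTB domain gene, kept 9.48% and 5.97%, the PRAME-family gene Pramel30 9.53% and 6.79%, and the calmegin gene Clgn, a chaperone of the germline, 6.07% and 12.6%. Lrrc31, a leucine-rich repeat gene, had the largest excess of the Sox2 over the Oct4 difference in the whole set, with d of −3.45 and −1.85. The roles were assigned after the genes were known and were not tested.

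**Figure D2:**
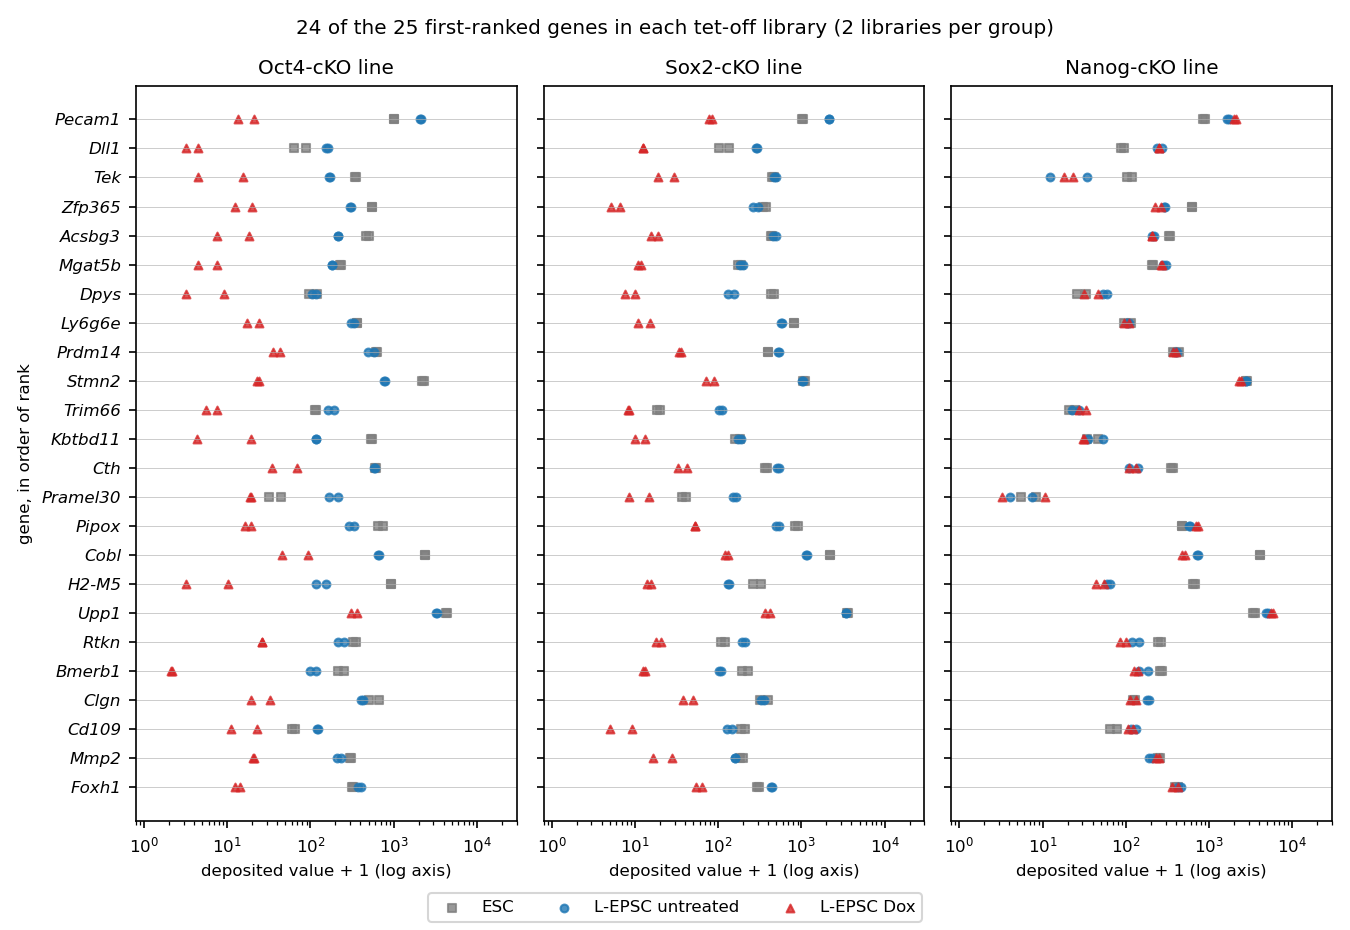
Normalized counts plus 1 on a log axis of 24 of the 25 first-ranked genes in every tet-off library, with a panel for each line and 2 points for each group (ESCs, L-EPSCs without Dox, L-EPSCs with Dox). Pecam1 was at 2069 and 2112 untreated and 12.7 and 20.0 with Dox in the Oct4-cKO line, while its Dox libraries in the Nanog-cKO line, at 2103 and 2004, lay above the untreated ones.

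The difference was stronger without Oct4 for 65 genes and stronger without Sox2 for 35, and for 45 genes the d of both lines lay within 0.5 of each other. A d lower by over 1 was seen for 24 genes in the Oct4-cKO line and for 7 in the Sox2-cKO line. The genes most weighted towards Oct4 were Mst1 (difference of d −2.87), Plxdc1 (−2.79), Bmerb1 (−2.61), Cbs (−2.35) and Pecam1 (−2.23), and those most weighted towards Sox2 were Lrrc31 (1.60), Ly6g6e (1.51), Ly6a (1.49), Cd109 (1.40) and Rims1 (1.37). Mst1 held 4 reads in each Dox library of the Oct4-cKO line, Plxdc1 4 and 2 and Bmerb1 1 and 1, so their values are loose and depend on the added 1. Residual expression of the targeted gene was not equal in the lines, and the rule used both contrasts, so these differences describe the libraries and have no test.

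In the Nanog-cKO line the median d was −0.19, with 74 genes below 0, and the typical gene kept 87.4% of its level (range 66.1% to 151%). For 55 genes both Dox libraries lay below both untreated libraries, beside 38.3% of the eligible genes, and the rule used these values, so nothing is read from the count. The lowest d were those of Clgn (−0.60) and Plekhg5 (−0.60), a guanine nucleotide exchange factor gene, and the highest those of Phc1 (0.60) and the motor protein gene Myo10 (0.59). Myo10 was at 2922 and 3002 untreated and 4522 and 4399 with Dox there, and was lower without Oct4 (887 and 973 against 3293 and 3261) and without Sox2 (1499 and 1457 against 5428 and 5600). The untreated mean was below 100 in this line for 17 genes, since the rule set no minimum there, and the lowest was 4.72 for Pramel30, whose d of 0.10 in this line rests on few reads. Nanog RNA was only partly reduced in this line, as its counts above show, although the study reports loss of Nanog protein with Dox. Protein was not measured in these libraries. From RNA alone, genes that answer to a deeper loss of Nanog and genes that do not answer to it cannot be told apart.

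The chosen genes lay on 18 chromosomes, with 7 on X, where 3.22% of the eligible genes lie. In 5 cases another chosen gene lay nearby in NCBIM37. Lrrc31 and Lrrc34 on chromosome 3 were separated by 31189 bases and Prdm14 and Slco5a1 on chromosome 1 by 122280 bases, with no protein-coding gene between either pair. The other pairs were Hsf2bp and Cbs (307570 bases), Cobl and Ddc (338564 bases) and Cd109 and Gsta4 (406198 bases), with 3, 1 and 17 protein-coding genes between them. Lrrc31 and Lrrc34 did not move alike with Dox in the Sox2-cKO line (d −3.45 and −1.76), although they did in the Oct4-cKO line (−1.85 and −1.81).

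Differences between J1 states were independent of the choice, since the J1 table was not used by the rule. All 100 genes passed the filter of at least 2 reads and were tested with limma among 21533 genes. Calls needed an adjusted p below 0.05 with a log2 fold change past 0.6. Both EPSC states were compared with the same ESC libraries, so their calls are not independent of each other. In D-EPSCs against ESCs 26 genes were higher while 35 were lower (median log2 fold change −0.34). Among all genes tested 10.8% were higher and 9.98% lower, and among the eligible genes 7.27% and 9.66%. In L-EPSCs against ESCs 19 genes were higher while 47 were lower (median −0.45), against 8.8% and 11.5% of all genes and 7.51% and 9.66% of the eligible genes. Between L-EPSCs and D-EPSCs 16 genes were higher in L-EPSCs and 26 lower, with a median of −0.14, against 4.8% and 8.58% of all genes and 4.04% and 4.72% of the eligible genes. Without D-EPSC replicate 1 this last comparison gave 13 higher and 13 lower, and without D-EPSC replicate 2 it gave 12 and 16, so no excess of lower genes is read from it. The shares of the chosen genes lay above both backgrounds in each direction, and they were split between directions rather than moving as a block. The medians of all and of eligible genes lay between −0.03 and 0.05 in these comparisons.

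**Figure D3:**
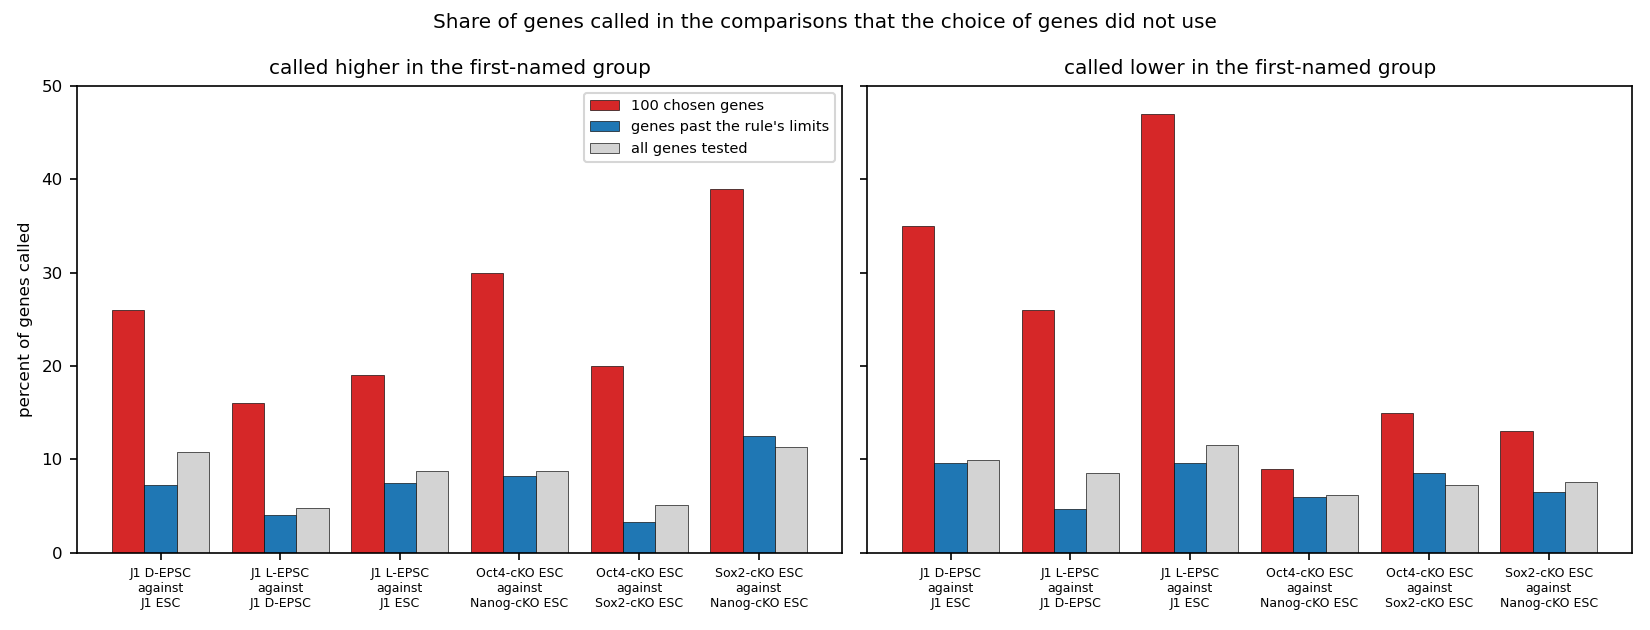
Percent of genes called higher (left) and lower (right) in the first-named group, for the 100 chosen genes, the 8327 eligible genes and all genes tested, in the 3 J1 and 3 tet-off ESC comparisons that the choice did not use. The bar of the chosen genes is the highest in every comparison and direction. It ranges from 9% lower in Oct4-cKO ESCs against Nanog-cKO ESCs to 47% lower in J1 L-EPSCs against ESCs. The 9% is near the 6.13% of all genes and the 6% of eligible genes.

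The largest losses in J1 EPSCs were those of Pramel30 and Npr3. Npr3, the clearance receptor of natriuretic peptides, was at 708 and 721 in ESCs, 14.3 and 11.7 in D-EPSCs and 28.8 and 21.8 in L-EPSCs. Its fitted log2 fold change was −5.68 ± 0.22 (SE, adjusted p = 7.36e-07) and −4.78 (adjusted p = 1.91e-06). Pramel30 was at 126 and 132 in ESCs, 1.02 and 0.979 in D-EPSCs and 0 and 1.15 in L-EPSCs, or at most 1 read in each EPSC library, so its fitted changes of −6.02 (adjusted p = 6.85e-05) and −6.47 (adjusted p = 4.45e-05) depend on the added 1. The membrane protein gene Mall was also near the floor in EPSCs, with 2 or 3 reads in each library, and fell from 34.1 and 29.5 (log2 fold change −3.45, adjusted p = 0.000782 in D-EPSCs, and −3.15, adjusted p = 0.00124 in L-EPSCs). These genes had no overlap between ESC and EPSC libraries.

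The transsulfuration pair fell together in J1 EPSCs. Cth was at 557 and 568 in ESCs, 69.4 and 60.7 in D-EPSCs and 118 and 109 in L-EPSCs, with a log2 fold change of −3.10 ± 0.12 (adjusted p = 8.11e-07) and −2.30 (adjusted p = 3.88e-06). Cbs was at 516 and 540, 53.1 and 69.5, and 126 and 132, with −3.10 ± 0.15 (adjusted p = 2.18e-06) and −2.02 (adjusted p = 2.18e-05). Between the EPSC states Cbs was 1.08 higher in L-EPSCs (adjusted p = 0.00108), a call that was lost when either L-EPSC library was left out (adjusted p = 0.0501 and 0.0541). Against ESCs, 9.66% of the eligible genes were lower in each EPSC state, and 7.27% and 7.51% were higher in D- and L-EPSCs. Of the 17 metabolic genes, 8 were lower and 4 higher in D-EPSCs and 8 were lower and 2 higher in L-EPSCs, which was not tested. Ldhb went the other way, from 486 and 464 in ESCs to 3210 and 3285 in D-EPSCs (2.77 ± 0.05, adjusted p = 3.41e-08), but it was at 701 and 652 in L-EPSCs, lower than in D-EPSCs by 2.26 (log2, adjusted p = 2.64e-07). The nucleoside transporter gene Slc28a1 was 1.12 higher in L-EPSCs (adjusted p = 0.000232), with 200 and 210 against 93.9 and 94.0 in D-EPSCs and 296 and 340 in ESCs.

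Of the 12 transcription and chromatin genes, 3 were higher and 1 lower in D-EPSCs and 2 were higher and 3 lower in L-EPSCs, against ESCs. The shares of the eligible genes were 7.27% and 9.66%, and 7.51% and 9.66%, and nothing is read from so few genes. Prdm14 went from 817 and 875 in ESCs to 231 and 251 in D-EPSCs and 246 and 244 in L-EPSCs (log2 fold change −1.81, adjusted p = 1.38e-06, and −1.78, adjusted p = 1.56e-06). Kit went from 4677 and 4700 to 988 and 993 and to 1254 and 1242 (−2.24, adjusted p = 1.22e-08, and −1.91, adjusted p = 2.44e-08). Pecam1 was at 2144 and 2026, 659 and 616, and 952 and 948 (−1.71, adjusted p = 2.31e-07, and −1.13, adjusted p = 1.92e-06). These 3 genes were lower in every EPSC library than in either ESC library. Etv5 was not called, at 5165 and 5039, 4310 and 4383, and 4914 and 4766 (log2 fold change −0.23 and −0.08), and neither were Foxh1 (−0.48 and −0.09) and Zscan10 (0.21 and −0.45). In all, 16 of the 100 genes were called in none of the J1 comparisons. How many of all or of the eligible genes were called in none was not counted, so nothing is read from the 16.

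Of the 18 ligand, receptor and signalling genes, 7 were higher and 6 lower in D-EPSCs and 4 were higher and 8 lower in L-EPSCs. Among the eligible genes 7.27% and 9.66%, and 7.51% and 9.66%, were so, and the role was not tested. Spred1 was at 337 and 392 in ESCs, 1486 and 1575 in D-EPSCs and 1344 and 1386 in L-EPSCs (2.07, adjusted p = 5.45e-07, and 1.91, adjusted p = 8.92e-07), and Spry2 at 482 and 504, 1351 and 1366, and 971 and 900 (1.46, adjusted p = 6.95e-07, and 0.92, adjusted p = 7.87e-06). Both feedback inhibitor genes were thus above both ESC libraries in each EPSC library. Dll1 was at 1.80 and 4.61 in ESCs, 63.3 and 48.9 in D-EPSCs and 17.5 and 6.90 in L-EPSCs. Its change was 3.84 ± 0.56 in D-EPSCs against ESCs (adjusted p = 0.00105) and −2.23 in L-EPSCs against D-EPSCs (adjusted p = 0.0193). With 2 and 5 reads in the ESC libraries these values are loose: the D-EPSC call was lost without either D-EPSC library or without ESC replicate 1 (adjusted p = 0.0567 to 0.0681), and the call between EPSC states without any of their 4 libraries (adjusted p = 0.0628 to 0.210). Fgfr3, at 0.899 and 4.61 in ESCs against 12.3 and 16.1 in L-EPSCs (2.21, adjusted p = 0.0247), likewise lost its call without ESC replicate 1 or either L-EPSC library (adjusted p = 0.127 to 0.190). The tyrosine kinase ligand gene Gas6 was higher in D-EPSCs than in ESCs by 1.00 and lower in L-EPSCs by 0.63, at 1126 and 1187 in ESCs, 2323 and 2311 in D-EPSCs and 755 and 736 in L-EPSCs. The difference between the EPSC states was −1.64 (adjusted p = 4.33e-07).

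Other members with large differences were spread over the roles. The RING ubiquitin ligase gene Rnf165 was higher in D-EPSCs by 2.36 ± 0.12 (adjusted p = 4.05e-06), at 382 and 399 against 69.2 and 82.1. The granin-like gene Pcsk1n was higher in D-EPSCs by 2.32 ± 0.26 (adjusted p = 0.00027), at 130 and 171 against 28.8 and 29.5 in ESCs, with L-EPSCs at 28.8 and 42.5, and its call between the EPSC states (−2.06, adjusted p = 0.000799) was lost without D-EPSC replicate 2 (adjusted p = 0.0529). In L-EPSCs the presynaptic gene Rims1 was lower than in ESCs by 3.28 (adjusted p = 4.98e-05), at 11.3 and 9.19 against 109 and 107. Ly6a was at 2073 and 2117 in ESCs, 1443 and 1600 in D-EPSCs and 297 and 303 in L-EPSCs, lower in L-EPSCs than in ESCs by 2.80 (adjusted p = 4.78e-08) and than in D-EPSCs by 2.34 (adjusted p = 3.36e-07). The microtubule-binding gene Clip4 (2.08, adjusted p = 2.18e-05) and the endocytosis gene Pacsin1 (1.61, adjusted p = 0.000549) were higher in L-EPSCs than in ESCs. Of the 13 surface protein genes, 10 were lower and 2 higher in L-EPSCs than in ESCs. Of all 100 genes 47 were lower and 19 higher, and of the eligible genes 9.66% and 7.51%. Whether surface genes differ from the rest of the set was not tested. Between the EPSC states the von Willebrand factor gene Vwf was lower in L-EPSCs by 2.18 (adjusted p = 0.000183), and Lrrc31 (1.73, adjusted p = 0.00139), the endocytic receptor gene Ly75 (1.28, adjusted p = 1.12e-05) and Lama1 (1.18, adjusted p = 3e-05) were higher. Directions between D- and L-EPSCs are those of the libraries as labelled.

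**Figure D4:**
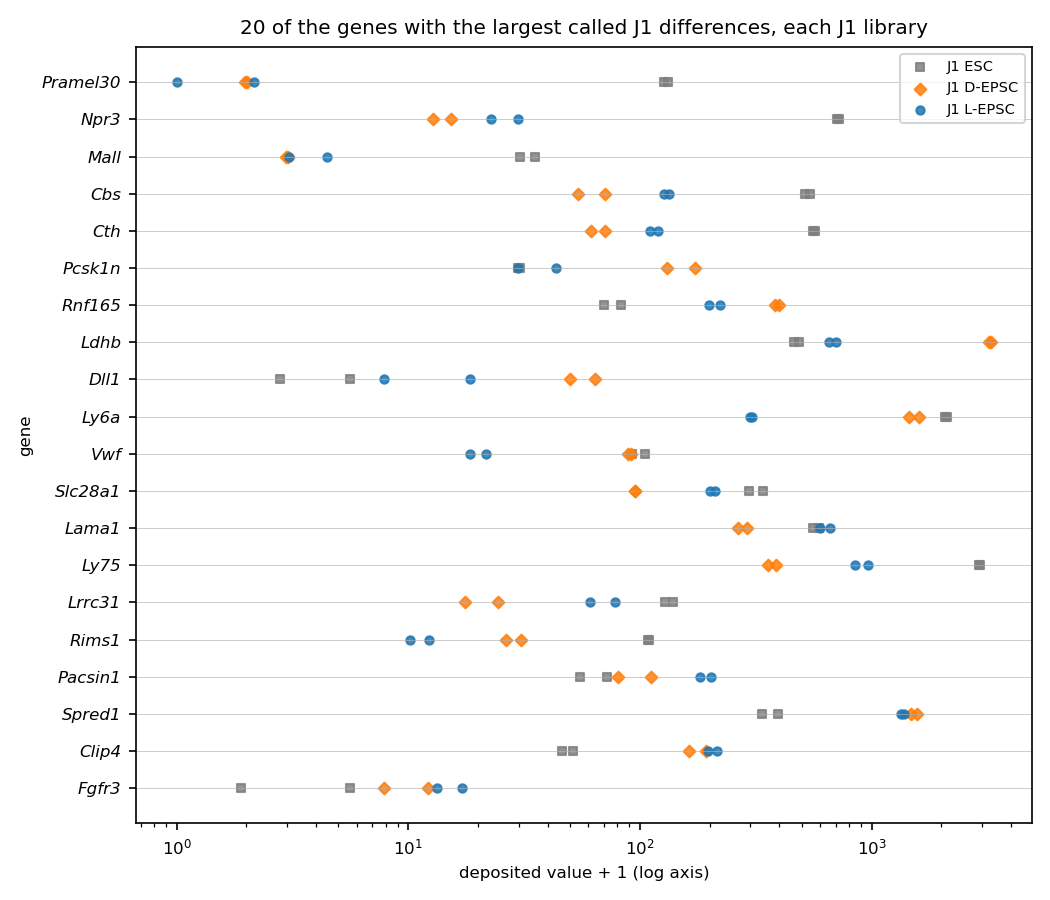
Normalized counts plus 1 on a log axis of 20 of the genes with the largest called differences in the J1 comparisons, with 2 points for each of ESCs, D-EPSCs and L-EPSCs. Npr3 was at 708 and 721 in ESCs and at most 28.8 in any EPSC library.

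Markers of other cells differed between the J1 states. The sum of 10 fibroblast markers, all 10 detected at a mean of 10 or more and led by Col1a1, was 99486 to 101739 in ESCs, 61371 to 61429 in D-EPSCs and 21248 to 21853 in L-EPSCs. Sums of 5 macrophage markers, all detected and led by Lyz2, were 2330 to 2353, 19103 to 19335 and 15138 to 15242. In the tet-off libraries the fibroblast sum was 1149 to 2595, over the 9 of these markers listed there, without Dcn. It was led by Fbln1, at group means of 710 to 1716 (489 to 648 in J1). Col5a1 was at 176 to 531, Pdgfrb at 68.0 to 340 and Thy1 at 2.46 to 354 (159 to 314 in J1). Means of Col1a1, Col1a2 and Postn were 102 or less, of the collagen gene Col3a1 1.02 or less and of Lum 0.44 or less. The macrophage sum in the tet-off libraries was 183 to 758, almost all of it from Cd68. The methods place both EPSC states off feeders before sequencing, yet all 10 fibroblast markers were detected in them. Ly6a, Gas6, Mmp2 and Col18a1 are also expressed by fibroblasts as background knowledge, and the part of the other cells in the J1 differences was not tested.

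ESCs of the tet-off lines were not used by the rule either, although its minimum of 100 applied to untreated L-EPSCs of the Oct4- and Sox2-cKO lines and not of the Nanog-cKO line. The eligible genes share that minimum but not the ranking, which also used untreated L-EPSCs of the Oct4- and Sox2-cKO lines. Counts higher than in Nanog-cKO ESCs can thus come in part from the choice of genes, and are not independent of it. In Oct4-cKO ESCs against Nanog-cKO ESCs 30 genes were higher while 9 were lower (median log2 fold change 0.33), against 8.75% and 6.13% of all 24007 genes and 8.24% and 6% of the eligible genes. In Sox2-cKO ESCs against Nanog-cKO ESCs 39 were higher while 13 were lower (median 0.36), against 11.3% and 7.59% of all genes and 12.5% and 6.51% of the eligible genes. Between Oct4-cKO and Sox2-cKO ESCs 20 were higher in the former and 15 lower, with a median of −0.11, against 5.09% and 7.25% of all genes and 3.25% and 8.56% of the eligible genes. The balance of this comparison turned when 1 library was left out, to 13 higher and 15 lower without Oct4-cKO ESC replicate 1 and 13 and 14 without Sox2-cKO ESC replicate 2, and at a threshold of 1 it was 8 and 10. The first and second of these comparisons share the Nanog-cKO ESC libraries. The 9 lower in Oct4-cKO against Nanog-cKO ESCs lay near both backgrounds, so no excess is read from them. The other shares of the chosen genes lay above both backgrounds, before conversion and without Dox. For the comparisons with Nanog-cKO ESCs this is a description only.

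Kbtbd11 was at 537 and 546 in Oct4-cKO ESCs, 157 and 183 in Sox2-cKO ESCs and 45.0 and 33.6 in Nanog-cKO ESCs, higher in the first than in the last by 3.77 ± 0.45 (adjusted p = 6.55e-06). Ly6a (3.15, adjusted p = 9.76e-05) and Pramel30 (2.49, adjusted p = 0.00101) followed in that comparison, at 30.3 and 38.7 against 1.05 and 6.73 for Ly6a and at 43.9 and 30.9 against 7.32 and 4.48 for Pramel30, so that few reads stand behind both. Dpys was at 119 and 95.7, 469 and 434, and 25.1 and 32.5, higher in Sox2-cKO than in Nanog-cKO ESCs by 3.93 ± 0.36 (adjusted p = 2.27e-07). Rims1 (3.13, adjusted p = 5.05e-09) and Ly6g6e (2.95, adjusted p = 1.02e-09) were also higher there. Lower in both lines than in Nanog-cKO ESCs were Npr3 (−2.45, adjusted p = 1.98e-07, and −3.39, adjusted p = 2.55e-09), at 51.2 and 43.5, 28.3 and 20.8, and 257 and 269, and the chromatin gene Phf6 (−1.53 and −1.40). Spp1 was lower in Oct4-cKO ESCs by 1.48 (adjusted p = 2.76e-14), at 3312 and 3345 against 9220 and 9347, and Stmn2 in Sox2-cKO ESCs by 1.38 (adjusted p = 5.05e-10). Between Oct4-cKO and Sox2-cKO ESCs, Trim66 (2.57, adjusted p = 1.94e-06), Kbtbd11 (1.67) and H2-M5 (1.66) were higher in the former, and Dpys (−2.07), the formin gene Fmn2 (−1.70) and Cd109 (−1.67) lower. These lines differ in origin as well as in the regulator replaced, which cannot be told apart. Trophoblast marker sums were 3548 to 3654 in Oct4-cKO, 8119 to 8173 in Sox2-cKO and 2200 to 2287 in Nanog-cKO ESCs, and primitive endoderm sums, which include the chosen gene Lama1, were 5297 to 5491, 6308 to 6410 and 2988 to 3084. Their part in these differences was not tested.

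From ESCs to untreated L-EPSCs of the same line, the median difference of the 100 genes was −0.29 in the Oct4-cKO, −0.11 in the Sox2-cKO and 0.005 in the Nanog-cKO line, beside 0.08, 0.07 and 0.07 for the eligible genes. Untreated L-EPSCs were used by the rule, so these values have no test. They were lower by over 0.6 in 34, 26 and 36 genes, where 13.6%, 7.65% and 12.8% of the eligible genes were so. They were higher by over 0.6 in 20, 21 and 26, beside 19.4%, 10.5% and 17.9% of the eligible genes, so that the share in the Oct4-cKO line was near the background. In every line 15 genes were lower by over 0.6, among them the regulators Etv5, Zscan10, Phc1, Phf6 and Sox13, the feedback inhibitors Spry2 and Spred1, the guidance receptor gene Robo1 and the actin nucleator gene Cobl. Etv5 went from 6452 and 6183 to 2383 and 2424 in the Oct4-cKO line, from 5645 and 5842 to 2290 and 2379 in the Sox2-cKO line and from 5608 and 5647 to 1160 and 1095 in the Nanog-cKO line. A further 11 genes were higher by over 0.6 in every line, among them Pecam1, Dll1, Fgfr3, Fbxo15, Ldhb and Ly6a. The share of eligible genes that did so in every line was not counted, so nothing is read from the 15 and the 11. For Ldhb the counts went from 3614 and 3569 to 6078 and 6353, from 3867 and 3916 to 9793 and 9916, and from 1051 and 1075 to 13367 and 13089. Both Dox libraries lay under both ESC libraries for 97 genes in the Oct4-cKO line, 95 in the Sox2-cKO line and 51 in the Nanog-cKO line, beside 41.4%, 40.8% and 39.1% of the eligible genes. The Dox values were used by the rule, so these counts are a description.

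For 17 genes the change from ESCs to L-EPSCs had opposite directions in J1 and in all 3 tet-off lines, with no overlap between ESC and L-EPSC libraries in any of the 4. The share of all or of eligible genes with this pattern was not counted, so nothing about the set is read from the 17. In 8 of these genes every difference was beyond 0.6 on the log2 scale. Ly6a was lower in J1 L-EPSCs by 2.80 and higher in the tet-off lines by 3.63, 3.95 and 3.03, where it went from 30.3 and 38.7 to 435 and 437 in the Oct4-cKO line. Pecam1 was lower by 1.13 in J1 and higher by 1.03, 1.06 and 0.94, and Spry2 was higher by 0.92 in J1 and lower by 2.49, 1.69 and 2.66. The tables were normalized separately and the difference between them was not tested. J1 ESCs and tet-off ESCs stood at different levels to begin with: Ly6a was at 2073 and 2117 in J1 ESCs and at most at 38.7 in those of the tet-off lines.

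**Figure D5:**
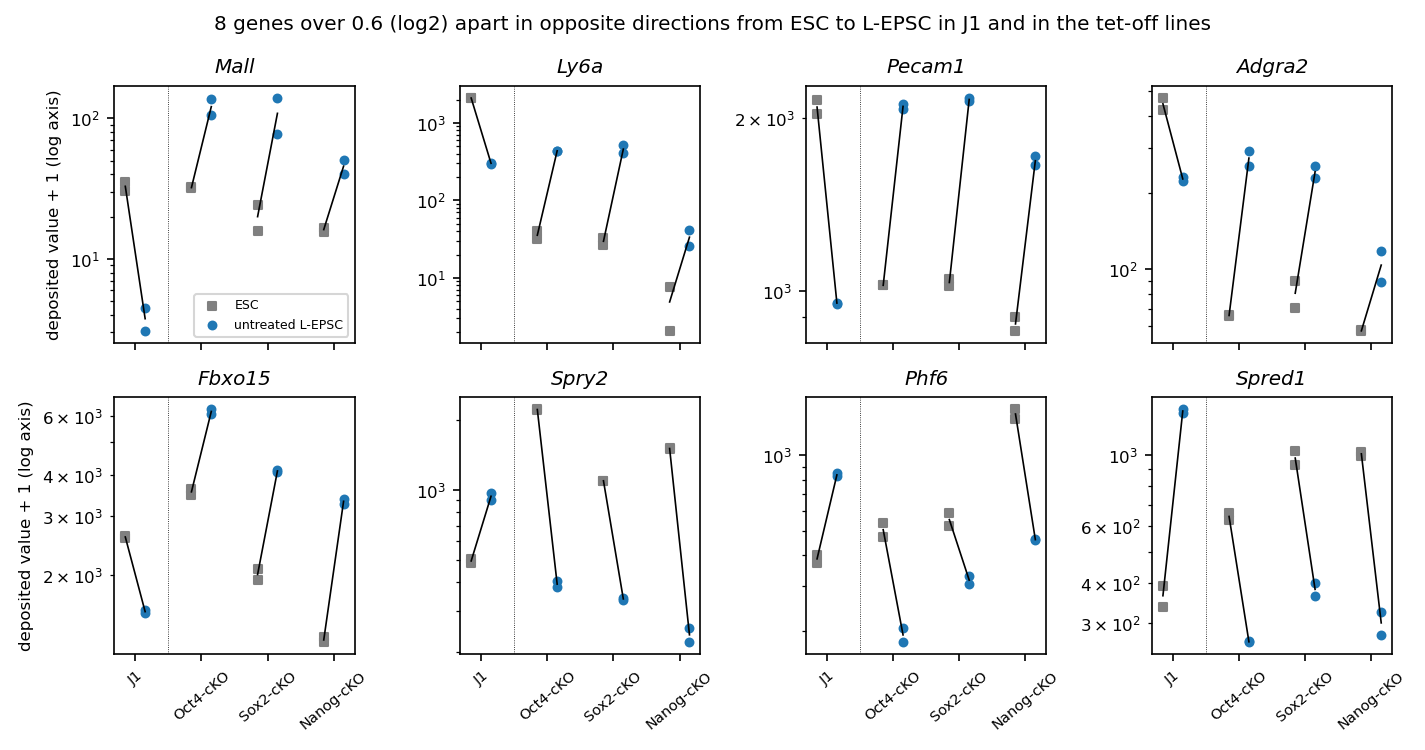
Normalized counts plus 1 on a log axis of the 8 genes with opposite differences beyond 0.6 (log2) in ESCs and untreated L-EPSCs of J1 and of the 3 tet-off lines, 2 points per group. Ly6a went from 2073 and 2117 to 297 and 303 in J1 and from 30.3 and 38.7 to 435 and 437 in the Oct4-cKO line.

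The FGF, ERK and ETS list holds 26 genes of that pathway, of which Fgfr3, Etv5, Spry2, Spred1 and Kit were among the 100. Of the 21 others, 12 were lower and 2 higher with Dox in the Oct4-cKO line, 11 lower and 2 higher in the Sox2-cKO line, and 5 lower and 0 higher in the Nanog-cKO line, at the threshold of 1. Over all genes tested, 8.53%, 7.79% and 2.8% were called higher with Dox in the Oct4-, Sox2- and Nanog-cKO lines, beside the 10.8%, 7.32% and 2.59% called lower. Dusp6, a phosphatase that inactivates ERK, had log2 fold changes of −3.67, −3.94 and −0.05, and the feedback inhibitor gene Spry4 −4.67, −3.72 and −0.64. The ETS factor gene Etv4 differed from Etv5, with −4.69, −4.35 and −2.75. In J1 cells 11 of the 21 were higher and 1 lower in D-EPSCs, and 12 higher and 3 lower in L-EPSCs. Of the members, Spred1 and Spry2 were higher there, Kit lower and Etv5 not called.

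A list of 50 pluripotency-associated genes shared Spp1, Etv5, Prdm14, Fbxo15 and Zscan10 with the 100. Among its 45 others, 25 were lower and 4 higher with Dox in the Oct4-cKO line, 28 lower and 2 higher in the Sox2-cKO line, and 3 lower and 4 higher in the Nanog-cKO line. Fbxo15, an F-box gene restricted to undifferentiated cells, was at 6281 and 6060 and then 1600 and 1506 in the Oct4-cKO line and at 4115 and 4082 and then 445 and 437 in the Sox2-cKO line. The germline list shared Prdm14, Kit and the recombination gene Hsf2bp with the 100. Of its 14 others, 4 were lower and 3 higher with Dox in the Oct4-cKO line, and 2 lower and 5 higher in the Sox2-cKO line, against 2 higher and 1 lower in the Nanog-cKO line. Of the 24 genes other than Dll1 on a Notch and ephrin list, 12, 9 and 5 were lower and 2, 2 and 0 higher with Dox in the Oct4-, Sox2- and Nanog-cKO lines. Beside Stmn2 and Elavl2, 18 genes of a neural and synaptic list were tested, and 13, 13 and 5 were lower and 3, 2 and 1 higher.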

How the data were processed

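Poly(A) RNA of 24 libraries, 2 in each of 12 groups, was analysed from 2 tables. The values that the authors deposited are a normalized signal: reads were trimmed with Trim Galore 0.6.4, aligned with STAR 2.7.9a to NCBIM37, counted per gene with HTSeq 0.11.2 (the strand setting is not stated, so overlapping antisense genes cannot be told apart) and divided by a DESeq2 size factor (version 4.1.1 as the labels write it). Dividing each value by that of 1 read gave whole reads for 100% of values in each of the 24 columns, within 0.1 of a read. The tables were normalized separately, so no test was run across them.

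Genes with at least 2 reads were tested with limma 3.58.1 (R 4.3.3, trend, empirical Bayes) on log2(value + 1), in 1 fit per table that held all its groups, and p-values were adjusted by Benjamini-Hochberg over all genes tested. Fold changes are on this scale, which understates the change of low genes. With 2 libraries a group no exact permutation test of a single gene can reach 0.05. The limma script was tested on simulated data. edgeR 4.0.16 and DESeq2 1.42.0 on the recovered reads, TMM scaling, other thresholds, pseudocounts and filters, the replicate number as a block and leaving out each library were tried. Same-numbered libraries did not deviate together (correlations between −0.028 and 0.040 over 39 pairs of groups), so the numbers do not pair them.

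Genes named are the 25 first in rank, the 5 called members with the largest J1 change and the 3 with the largest change between tet-off ESCs in each direction, the 5 with the lowest and the 5 with the highest difference between the Oct4-cKO and Sox2-cKO lines, the 3 on each side of the last rank, and members on the lists. A few of these genes are not reported here. A few others of the 100 were named for their role after their values were seen. The members and lists were chosen with earlier results of these data known. Gene positions are from the NCBIM37 annotation (GENCODE), and promoter sequences from RefSeq (GRCm38.p6).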

Additional observations from a re-analysis of the deposited data

Results flagged for a closer look

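For 17 of the 100 genes both J1 L-EPSC libraries moved one way from ESCs and those of the 3 tet-off lines the opposite way, and the difference was not tested, because the tables were normalized separately. How many other genes did so was not counted, so the 17 are not read as a trait of the set. In 8 genes all differences were beyond 0.6 on the log2 scale, with J1 differences of −3.15 for Mall, −2.80 for Ly6a, −1.13 for Pecam1, −0.98 for Adgra2, −0.74 for Fbxo15, 0.92 for Spry2, 1.11 for Phf6 and 1.91 for Spred1. In the Oct4-, Sox2- and Nanog-cKO lines they were 1.90, 2.41 and 1.49 for Mall, 2.05, 1.60 and 0.84 for Adgra2, 0.80, 1.03 and 1.37 for Fbxo15, −1.39, −0.80 and −1.66 for Phf6, and −1.29, −1.35 and −1.75 for Spred1. Mall held 2 or 3 reads in the J1 L-EPSC libraries. In the other 9 at least 1 difference was within 0.6, and their J1 differences were −1.52 for Ube2l6, 0.13 for Lama1, 0.32 for Robo1, 0.51 for Phc1, 0.66 for Socs2, 0.79 for Col18a1, 0.84 for Zfp365, 1.46 for Rnf165 and 1.5 for Armcx4.

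Gas6 was higher in J1 D-EPSCs than in ESCs by 1.00 and lower in L-EPSCs by 0.63, and the difference between the EPSC states was −1.64 on the log2 scale (limma, adjusted p = 4.33e-07).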

How the results depend on the processing

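The counts of members called held within 1.5 times, apart from the following. At a log2 threshold of 1, 24 members were called between J1 L-EPSCs and D-EPSCs (42 at 0.6), 25 between Oct4-cKO and Nanog-cKO ESCs (39), 18 between Oct4-cKO and Sox2-cKO ESCs (35) and 33 between Sox2-cKO and Nanog-cKO ESCs (52). Leaving out 1 library at a time gave 26 to 35 between J1 L-EPSCs and D-EPSCs, the lowest without D-EPSC replicate 1, 53 to 55 for D-EPSCs and 56 to 61 for L-EPSCs against ESCs, and 33 to 37, 27 to 28 and 48 to 50 for the tet-off ESC comparisons in the order Oct4 against Nanog, Oct4 against Sox2 and Sox2 against Nanog. With Dox it gave 99, 100 and 0. edgeR and DESeq2 on reads called 62 and 62 (J1 D-EPSCs against ESCs), 67 and 67 (L-EPSCs against ESCs), 42 and 42 (L-EPSCs against D-EPSCs), 41 and 40 (Oct4 against Nanog), 52 and 52 (Sox2 against Nanog) and 36 and 37 (Oct4 against Sox2). With the replicate number as a block the counts were 61, 66, 42, 39, 52 and 35, so the replicate block changed no count, nor the 100, 100 and 0 with Dox.

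Of the 100 members, 63 were kept at a minimum mean of 200, 65 at a Nanog-cKO limit of 0.4, 70 at a minimum of 50, and 83 and 80 without replicate 1 or 2. The median change from ESCs to untreated L-EPSCs was −0.270, −0.0871 and 0.0416 with TMM scaling in the Oct4-, Sox2- and Nanog-cKO lines, and lay between −0.315 and −0.301, −0.146 and −0.141, and −0.0706 and −0.0660 without replicate 1 or 2. The main values were −0.29, −0.11 and 0.005, so the Nanog-cKO median changed sign and no direction is read from it. The cause was not tested. For single genes, 316 values kept their call and 13 lost it, all of Dll1, Pcsk1n, Cbs or Fgfr3 when 1 library was left out. Depth limits the values of Pramel30, Mall, Dll1, Fgfr3, Trim66, Bmerb1, Arhgef40, Plxdc1 and Mst1, which held 5 reads or fewer in both libraries of at least 1 group.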
